A study of Mus musculus with 8 samples.

Results

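Mural cells wrap the outer wall of blood vessels. In mouse synovium they were taken here as 423 droplet barcodes out of 35811 in 3 libraries of unsorted synovial cells, and out of 47658 barcodes in the whole series. The members were chosen by marker UMIs (unique molecular identifiers, 1 per captured transcript): a barcode had to be absent from the deposited cell annotation, hold 500 or more genes and at most 10% mitochondrial UMIs, have 0 UMIs of Pdgfra, Pecam1 and Ptprc, and have at least 1 UMI of at least 2 of Rgs5, Myh11, Cspg4 and Mcam. The levels of these 7 genes are therefore a description of the choice. They stayed in the fits across all genes, and the list counts of pericyte, contractile and adhesion genes below leave them out. The untreated library gave 68 such barcodes, the TNF-inhibitor library 145 and the IL-17-inhibitor library 210.

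Each library pooled viable CD45- GR-1 cells of ankle and wrist joints from 4 mice aged 8 to 10 weeks, told apart by hashtag antibodies that bind CD45 and B2m. In each, 3 animals (hashtags 1 to 3) were arthritic, carried the hTNFtg197 human TNF transgene (strain B6-Tg(TNF)197Gkl) and had been given Il23mc for 9 days. The arthritic animals of a library were untreated, received an antibody against human TNF, or received an antibody against mouse IL-17a. The animal with hashtag 4 was an untreated wild-type mouse, here called healthy, which lacked both the transgene and Il23mc, so a difference from it joins both. Each treatment filled 1 library, so library and treatment cannot be told apart between arthritic groups, and untreated animals can be set against healthy ones of their own library only through 1 healthy animal.

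Pericytes sit on capillaries and venules, share the basement membrane with the endothelium and are marked by Rgs5, a regulator of G-protein signalling, and by the Kcnj8 and Abcc9 subunits of a potassium channel. Vascular smooth muscle cells ring arterioles and arteries and contract through smooth muscle myosin (Myh11), actin (Acta2) and their partners. Both depend on the receptors Pdgfrb and Notch3, and in inflamed tissue mural cells are known to release chemokines and to take part in leukocyte entry.

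The libraries held 149149135 to 180057537 UMIs. The mural barcodes held a median of 9178 UMIs (1085 to 60935) and 2605 genes, against a median of 12932 UMIs over all 30815 barcodes within the same gene and mitochondrial limits. No mural barcode sequence was shared between libraries, while 278 barcodes of all 35811 were. The hashtags assigned 224 of the 423 to 1 animal, marked 19 as holding hashtags of several animals and left 180 with none. Wells were hyper-loaded per the labels and no doublet caller was run, so the 19 were kept in counts by library only. The label healthy was in doubt in 2 libraries: among mural barcodes with hashtag 4, 27.6% in the TNF-inhibitor library held a UMI of a Y-linked gene and 48.3% held Xist with no Y-linked UMI, and in the IL-17-inhibitor library these were 10.5% and 63.2%. Arthritic animals with 10 or more mural barcodes had one kind at 79.3% or more and the other at 5.26% or less. Calls that rest on the healthy animals are therefore given with the count left when each is omitted. Animals with fewer than 10 mural barcodes, untreated animal 2 with 3 and the healthy animal of the untreated library with 5, stayed out of all gene fits, which left 2 healthy, 2 untreated, 3 TNF-inhibited and 3 IL-17-inhibited animals. Sex markers differed between these groups. Both untreated animals held Xist with no Y-linked UMI (100% and 88.9% of mural barcodes). TNF-inhibited animals 1 and 2 and IL-17-inhibited animal 1 held Y-linked UMIs (82.4%, 95.8% and 79.3%), and the other inhibitor-treated animals mainly Xist. The part of sex in the gene differences was not tested.

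Leiden clustering split the 423 barcodes into 6 clusters, and the mural label held for 4 of them. Cluster 0 (147 barcodes) was called pericyte-like, with 9 of the 12 pericyte markers in at least 25% of its barcodes, although its leading genes by fold were mainly chemokine genes (Ccl11, Ccl19, Cxcl9) and Vtn was the only pericyte marker among them. At a finer resolution of 0.6 the clustering gave a pericyte-like cluster of 65 barcodes and an unnamed one of 69 led by Ccl19 and Ccl11. Cluster 3 (50 barcodes) had 10 of the 12 pericyte markers in at least 25% of its barcodes but had the endothelial gene Emcn and no pericyte marker among its leading genes, so it was left unnamed; clusters 0 and 3 are called the Rgs5-rich clusters below (197 barcodes). Clusters 1 and 4 (107 and 38 barcodes, 145 together) were smooth-muscle-like. Clusters 2 and 5 did not carry the label: in cluster 2 (69 barcodes) the 10 markers of Schwann and perineurial cells summed to 3758 CPM (UMIs per 1000000 UMIs), against 94.0 CPM in the Rgs5-rich clusters, and cluster 5 (12 barcodes) held the keratin Krt5 at 2086 CPM against 5.74 CPM. Cluster 3 was deeper than cluster 0, at a median of 16865 against 8705 UMIs. Its 12 endothelial markers summed to 496 against 177 CPM, and its 21 acute-phase and IL-17-response genes to 39077 against 7930 CPM. Whether cluster 3 holds droplets with RNA of several cells was not tested.

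The 81 barcodes of clusters 2 and 5 lay near the threshold of 2 genes. Of the 423 members, 199 had exactly 2 of the 4 rule genes, 144 had 3 and 80 had all 4, while 685 barcodes that met every other condition had only 1 and stayed outside. Of these 81, 74 had exactly 2 of the genes, and in 45 these were Mcam and Cspg4, a pair found alone in 0 of the 197 Rgs5-rich and 0 of the 145 smooth-muscle-like barcodes. A further 464 unannotated barcodes with 2 or more rule genes were kept out by a UMI of Pdgfra, Pecam1 or Ptprc.

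**Figure D1:**
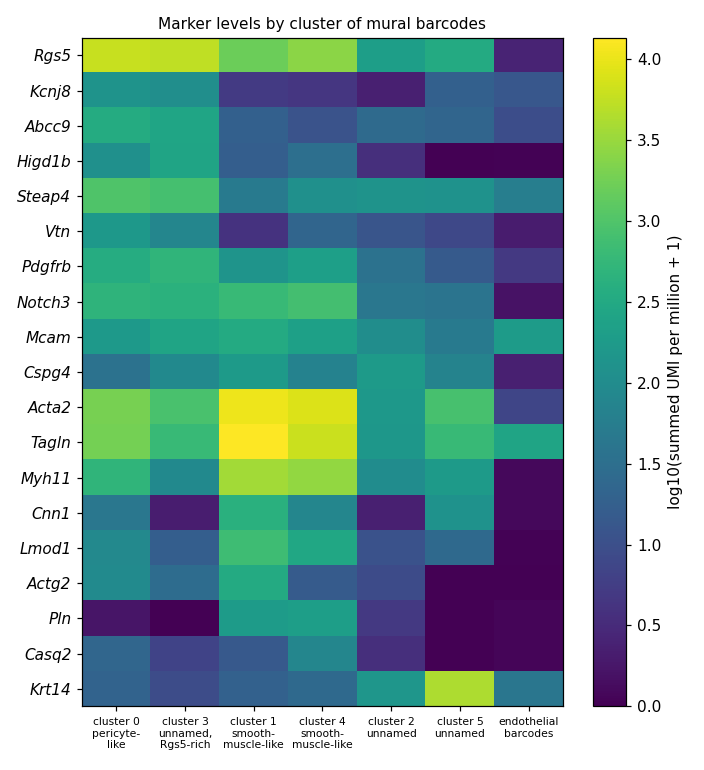
Level of marker genes (rows) in each cluster of mural barcodes and in endothelial barcodes (columns), as log10 of CPM plus 1. Rgs5 lies at 5911 CPM over clusters 0 and 3 and at 1828 CPM over clusters 1 and 4, Myh11 at 350 and 3459 CPM, and Krt14 stands out in cluster 5.

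Pericyte genes and contractile genes parted the 2 classes. These levels are a description with no test, since every gene entered the clustering. Rgs5 was at 5911 CPM in the Rgs5-rich clusters (exact 95% Poisson interval 5811 to 6012, counting error only) and 1828 CPM in the smooth-muscle-like ones (1754 to 1904), against 1.62 CPM in 1228 endothelial barcodes. Among other pericyte genes, Kcnj8 stood at 124 against 3.95 CPM, Abcc9 at 318 against 15.8 CPM, and Vtn, which encodes vitronectin, at 130 against 7.11 CPM. The endothelin receptor Ednrb was at 1046 against 52.9 CPM and the angiotensin receptor Agtr1a at 70.6 against 1.58 CPM. Contractile genes ran the other way: Acta2 was at 1549 CPM in the Rgs5-rich clusters and 10067 CPM in the smooth-muscle-like ones, Lmod1, an actin nucleator, at 61.3 against 614 CPM, and Pln, the inhibitor of the sarcoplasmic calcium pump, at 0.441 against 188 CPM. The vasopressin receptor Avpr1a, at 66.2 against 498 CPM, and the ATP-gated channel P2rx1, at 0.882 against 180 CPM, followed the contractile genes. Genes common to mural cells differed less: Notch3 was at 461 and 654 CPM and Pdgfrb at 415 and 152 CPM.

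Basement membrane and chemokine genes also split the classes. Col4a1, a chain of collagen IV, was at 2500 CPM in the Rgs5-rich clusters and 927 CPM in the smooth-muscle-like ones, while Col4a5 was at 3.97 and 101 CPM and the laminin chain Lama5 at 46.3 and 266 CPM. The monocyte chemokine Ccl2 was at 8896 against 966 CPM, the neutrophil chemokine Cxcl1 at 13034 against 5746 CPM, the eosinophil chemokine Ccl11 at 1091 against 4.74 CPM, and Il6 at 4143 against 2626 CPM. Within the Rgs5-rich clusters, Ccl11 was at 1622 CPM in cluster 0 and 200 CPM in cluster 3. The interferon-gamma-induced chemokine Cxcl9 was at 1451 and 609 CPM in the same clusters, and Col4a1 at 1409 and 4329 CPM. Summed over the 21 genes of MHC class I presentation, the level was 11713 CPM in the Rgs5-rich clusters, 12228 CPM in endothelial barcodes and 2585 CPM in the smooth-muscle-like clusters. The classes also differed in their mix of animals. Healthy animals held 2, 13 and 3 of the 37 smooth-muscle-like barcodes given to an animal. They held 3, 10 and 12 of the 144 Rgs5-rich ones. Whether this mix shapes the levels by class was not tested.

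Barcodes of the smooth-muscle-like clusters were few in the untreated library. They made up 4 of its 68 mural barcodes (5.88%, exact 95% Clopper-Pearson interval 1.63 to 14.4%), 55 of 145 in the TNF-inhibitor library (37.9%, 30.0 to 46.4%) and 86 of 210 in the IL-17-inhibitor library (41.0%, 34.2 to 47.9%). As a share of all barcodes within the gene and mitochondrial limits they were 0.0394%, 0.590% and 0.758%. The Rgs5-rich clusters varied less, with 48, 62 and 87 barcodes, or 0.473%, 0.665% and 0.766%. With 1 library per treatment these shares have no test.

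**Figure D2:**
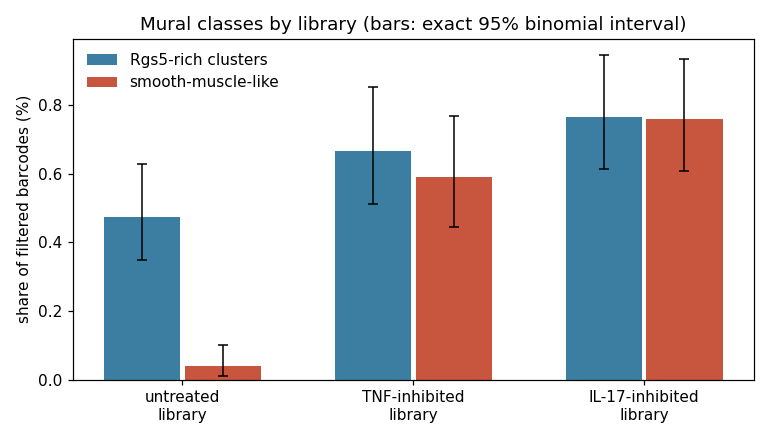
Share of filtered barcodes (percent, from 0) in the Rgs5-rich and smooth-muscle-like clusters in each library; error bars are exact 95% binomial intervals, which cover counting error only. The smooth-muscle-like share is 0.0394% in the untreated library against 0.590% and 0.758% in the other 2.

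Smooth muscle barcodes were also counted by another rule. A count chosen after the data were seen took every barcode within the limits that had a Myh11 UMI, 10 or more Acta2 UMIs and at least 3 of 10 other smooth muscle genes, whatever its other genes. It found 21 barcodes in the untreated library (0.207%, 0.128 to 0.316%), 84 in the TNF-inhibitor library (0.901%, 0.719 to 1.11%) and 121 in the IL-17-inhibitor library (1.07%, 0.885 to 1.27%). The untreated library was again the lowest, with an interval below those of the other libraries. Of the 21, 84 and 121 barcodes, 14, 63 and 92 were mural members, so this count largely drew on barcodes already chosen. The smooth-muscle-like clusters held 4, 55 and 86. The rule asks for a fixed number of Acta2 UMIs, and median depth within the limits was 11961, 13363 and 13457 UMIs in the same order. The part of depth was not tested.

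Most smooth-muscle-like barcodes could not be given to an animal. Of the 145, 108 (74.5%) carried no hashtag call, against 41 of 197 (20.8%) in the Rgs5-rich clusters, and the median hashtag count was 498 against 1381 UMIs. The 3 MHC class I transcripts B2m, H2-K1 and H2-D1 together gave 15 of every 10000 UMIs in the smooth-muscle-like clusters and 83.3 in the Rgs5-rich ones. Within a library, the MHC class I share and the hashtag count of the barcodes in both classes had a Spearman's rho of 0.69 (52 barcodes), 0.75 (117) and 0.64 (173) in the untreated, TNF-inhibitor and IL-17-inhibitor libraries, while total UMIs and hashtag count had 0.49, 0.45 and 0.49; barcodes of 1 library share its staining and depth. The rho values span both classes, so they also hold the difference between the classes. In the Rgs5-rich clusters of the untreated library, the 28 barcodes given to an animal held 75.7 class I UMIs per 10000. The 20 with no hashtag held 26.2, and median depths were 9015 and 4347 UMIs in turn. In the TNF-inhibitor and IL-17-inhibitor libraries the Rgs5-rich values were 85.6 against 49.3 and 95.6 against 46.9. Smooth-muscle-like barcodes there held 15.6 against 13.1 and 17.1 against 15.8. In the untreated library, 3 smooth-muscle-like barcodes given to an animal held 8.23 and 1 with no hashtag held 11.7. Every value by animal below is therefore a value of barcodes that stained, and whether this shapes the differences was not tested.

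By animal, mural barcodes were a larger share in healthy animals of 2 libraries. Per animal, the mural share of filtered barcodes was 0.527% in the healthy animal of the untreated library, 3.11% in that of the TNF-inhibitor library and 3.33% in that of the IL-17-inhibitor library (2.32 ± 1.56%, SD, n = 3). It was 0.724 ± 0.573% in untreated, 1.30 ± 0.536% in TNF-inhibited and 1.24 ± 0.482% in IL-17-inhibited animals (SD, n = 3 each). Healthy animals exceeded the arthritic mean of their library by 1.24 percentage points on average (two-sided exact permutation test within libraries over 64 arrangements, p = 0.0469, adjusted over the 3 share tests 0.141). The healthy animal was highest in 2 of 3 libraries and lay between the arthritic animals in the untreated one. Without the healthy animal of the TNF-inhibitor library the exact p was 0.188, and without that of the IL-17-inhibitor library 0.25. Of the other 10 omissions of 1 animal, 8 gave an exact p of 0.0625 and 2 gave 0.0417. Omitting a healthy animal took its library out of the test, so an exact p under 0.0625 could not then occur. Without the healthy animal of the untreated library the exact p was 0.0625, with a difference of 1.96 percentage points. The 3 arthritic groups overlapped, and their shares did not differ beyond the spread between animals (exact permutation test of an F statistic over 1680 assignments, p = 0.421, adjusted 0.421).

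The smooth-muscle-like share of an animal's mural barcodes was 7.69%, 0% and 0% in untreated animals 1 to 3, of 13, 3 and 18 barcodes. It was 23.5%, 4.17% and 31.6% in TNF-inhibited and 6.90%, 13.0% and 8.00% in IL-17-inhibited animals. The groups overlapped (exact permutation test, p = 0.15, adjusted 0.225). Leaving out TNF-inhibited animal 2, the lowest of its group, gave an exact p of 0.00714, and no other omission of an animal gave an exact p under 0.05. The mean of the inhibited animals exceeded the untreated mean by 11.97 percentage points, and by 0.72 points when animals were taken by the highest centred log-ratio of hashtags. In the healthy animals the share was 40.0% (2 of 5), 44.8% (13 of 29) and 15.8% (3 of 19).

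**Figure D3:**
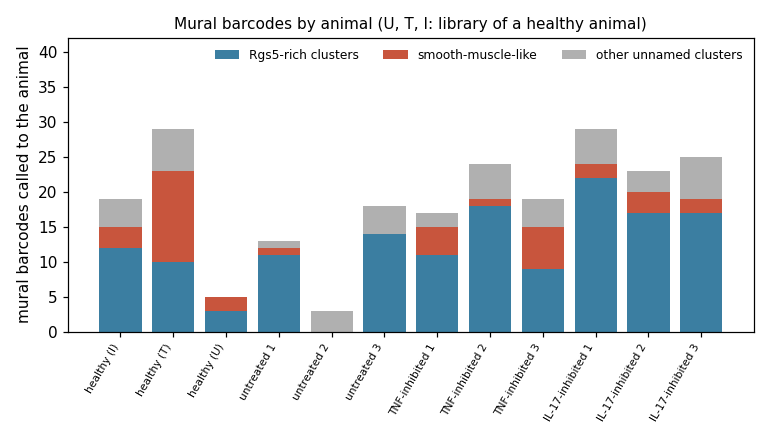
Number of mural barcodes assigned to each animal by hashtag, stacked by class; U, T and I give the library of a healthy animal. Counts run from 3 in untreated animal 2 to 29 in a healthy and an IL-17-inhibited animal, and smooth-muscle-like barcodes number 13 in the healthy animal of the TNF-inhibitor library.

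Some genes of antigen presentation, complement and vessel matrix were higher in mural cells of untreated arthritic animals than in those of healthy ones. Of 5063 genes tested in summed mural counts, 43 were higher (0.849%) and 16 lower (0.316%) in the 2 untreated than in the 2 healthy animals at an adjusted p under 0.05 (edgeR quasi-likelihood test, Benjamini-Hochberg). Without the healthy animal of the TNF-inhibitor library 7 genes passed, and without that of the IL-17-inhibitor library 25 passed. The count was 14 without untreated animal 1, 39 without IL-17-inhibited animal 2, 93 without TNF-inhibited animal 3 and 267 with no filter on low counts. The untreated and the fitted healthy animals came from different libraries, so library and arthritis cannot be told apart in this fit, and values of arthritic animals from the healthy animals' own libraries are given beside it. The healthy sums also held more smooth-muscle-like barcodes, 16 of 48 against 1 of 31, so the fit was repeated on the Rgs5-rich clusters alone. There, 44 of 3665 genes were higher (1.20%) and 21 lower (0.573%), 35 of them shared with the 59 from all mural barcodes. All 59 had the same sign in this subset, which holds the same healthy and untreated animals and many of the same barcodes. The healthy sums there held 10 and 12 barcodes. TNF-inhibited animal 3, with 9 Rgs5-rich barcodes, stayed out of this fit.

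Of the MHC class I genes, 8 rose. The list's genes encode the heavy chains (H2-K1, H2-D1, H2-Q genes) and the light chain B2m that display peptides on the cell surface, and the immunoproteasome subunits that cut those peptides. Of 19 tested genes of this list, 8 rose and none fell, and the median log2 fold change was 2.03 beside -0.00 over all genes. H2-K1 (chr17:33996017-34000347, mm10) was at 429 and 377 CPM in the healthy animals and at 1605 and 2013 CPM in the untreated ones, a log2 change of 2.17 (SE 0.25, adjusted p = 0.0004). All 6 inhibitor-treated animals lay at 1799 CPM or more, with no overlap with healthy. The animals left out of the fit fell on the same sides, at 281 CPM in the healthy animal of the untreated library and 1101 CPM in untreated animal 2. B2m (chr2:122147686-122153083) was at 552 and 830 CPM in healthy and 2387 and 3229 CPM in untreated animals (log2 2.03, SE 0.29, adjusted p = 0.0016), and at 675 CPM in the left-out healthy animal. Without the healthy animal of the TNF-inhibitor library the calls for B2m and H2-D1 were lost (adjusted p = 0.095 and 0.085), while those for H2-K1 and H2-Q7 passed in each setting run. H2-Q7 (chr17:35439155-35443773), from 8.84 and 16.4 to 247 and 263 CPM, rose most of the 8 (log2 4.33, SE 0.47, adjusted p = 0.00036). H2-D1 rose by 1.92 and H2-Q4 by 2.05 on the log2 scale, and the immunoproteasome genes Psmb8, Psmb9 and Psmb10 by 2.85, 2.37 and 2.24. The immunoproteasome calls were less stable: all 3 were lost without either healthy animal (adjusted p = 0.2 and 0.25 for Psmb8, 0.27 and 0.11 for Psmb9, 0.12 and 0.17 for Psmb10, without the IL-17-inhibitor and the TNF-inhibitor library's animal in turn), and Psmb9 was lost in 12 of 16 settings, DESeq2 among them. H2-Q4 was lost without the healthy animal of the TNF-inhibitor library and without untreated animal 1. H2-Q genes are near-identical copies of each other, so reads may have been split among them.

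In the Rgs5-rich clusters alone 7 of 19 genes of the list rose, all 19 had a positive change, and the median was 2.13. Among the 7 were H2-K1 (log2 2.35, adjusted p = 0.00021) and B2m (log2 2.13, adjusted p = 0.00039), while Psmb8 (adjusted p = 0.054), Psmb9 (0.25) and Psmb10 (0.061) did not pass. Together B2m, H2-K1 and H2-D1 gave 13.8, 13.5 and 17.8 UMIs per 10000 in healthy animals (untreated, TNF-inhibitor and IL-17-inhibitor library in turn). Arthritic animals gave 46.2 to 68.4, 72.2 to 85.9 and 86.0 to 112 in the same libraries, so the healthy animal was the lowest in each. Median hashtag counts of the mural barcodes moved the same way, at 183, 642 and 750 UMIs in healthy and 955 to 3239 UMIs in arthritic animals, and the part of staining in the class I result was not tested.

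RefSeq promoters of 4 of these genes are shown because they rose together; each runs from 250 bases before to 50 after the gene's start in GRCm38.p6, 5′ to 3′. Capitals mark matches, on either strand, to the NF-kB consensus and, in B2m, also to the core of the interferon-stimulated response element (GAAA, any 2 bases, GAAA).
H2-K1, chr17:34000298-34000597, minus strand: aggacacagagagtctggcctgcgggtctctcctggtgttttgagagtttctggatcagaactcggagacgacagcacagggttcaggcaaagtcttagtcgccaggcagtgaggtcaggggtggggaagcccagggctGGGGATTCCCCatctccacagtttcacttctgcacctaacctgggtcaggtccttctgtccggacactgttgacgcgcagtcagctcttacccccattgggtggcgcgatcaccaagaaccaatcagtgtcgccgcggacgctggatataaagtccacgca
H2-D1, chr17:35262844-35263143, plus strand: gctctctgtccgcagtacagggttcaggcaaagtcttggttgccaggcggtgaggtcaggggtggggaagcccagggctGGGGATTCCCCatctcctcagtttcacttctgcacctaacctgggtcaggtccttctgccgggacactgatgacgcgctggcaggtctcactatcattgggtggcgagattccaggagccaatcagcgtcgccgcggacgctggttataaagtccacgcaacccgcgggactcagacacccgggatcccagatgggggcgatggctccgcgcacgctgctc
B2m, chr2:122147437-122147736, plus strand: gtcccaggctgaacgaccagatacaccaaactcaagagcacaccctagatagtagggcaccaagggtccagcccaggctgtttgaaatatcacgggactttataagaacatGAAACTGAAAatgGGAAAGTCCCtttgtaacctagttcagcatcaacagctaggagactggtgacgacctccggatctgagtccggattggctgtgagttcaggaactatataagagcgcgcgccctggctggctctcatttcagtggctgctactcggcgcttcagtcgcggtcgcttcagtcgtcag
H2-Q7, chr17:35438905-35439204, plus strand: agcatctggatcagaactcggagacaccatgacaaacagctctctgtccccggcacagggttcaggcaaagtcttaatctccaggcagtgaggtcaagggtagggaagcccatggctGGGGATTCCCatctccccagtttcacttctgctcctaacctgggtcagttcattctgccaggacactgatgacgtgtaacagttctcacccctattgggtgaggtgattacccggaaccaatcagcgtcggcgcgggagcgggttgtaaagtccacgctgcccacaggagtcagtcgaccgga

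The NF-kB consensus was found in 5 of the 8 class I genes that rose (62.5%) and in 8 of the 18 genes of the list with a promoter in the table (44.4%), against 8.18% of 27025 promoters. The core of the interferon-stimulated response element was found in 1 of the 8 (12.5%) and 5 of the 18 (27.8%), against 3.49% of all promoters. The 2 overlapping matches of H2-K1 and of H2-D1 form 1 run of capitals each. The letters around the match are nearly the same in H2-K1, H2-D1 and H2-Q7, as in related genes. Matches in this list are therefore not independent of each other, and the shares were not tested against that of all promoters. A match describes letters in this window only. For the interferon element only the exact pattern GAAA, any 2 bases, GAAA was searched. Other forms of the element were not counted, so a promoter without a match may still hold one.

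Complement and acute-phase genes rose beside them. C3 (chr17:57203970-57228136), the central component of complement, was at 212 and 186 CPM in healthy and at 1688 and 1275 CPM in untreated animals (log2 2.89, SE 0.34, adjusted p = 0.00043). The left-out healthy animal, at 873 CPM, lay within the range of inhibitor-treated animals, which ran from 776 to 2341 CPM. Cp (chr3:19957054-20009145), the copper-carrying ferroxidase ceruloplasmin, was at 106 and 76.4 CPM in healthy and 1506 and 1848 CPM in untreated animals (log2 4.19, SE 0.52, adjusted p = 0.0029). Its level in the left-out healthy animal was 113 CPM. Within the TNF-inhibitor library the arthritic animals were at 866 to 2457 CPM against 106 CPM in the healthy one, and within the IL-17-inhibitor library at 747 to 996 CPM against 76.4 CPM. The call for Cp was lost without either healthy animal or without untreated animal 1 (adjusted p up to 0.089). Chosen after their values were seen, the classical pathway proteases C1s1 and C1ra rose by 2.14 and 2.18 and the C1 inhibitor Serping1 by 2.07 on the log2 scale. All 3 calls were lost without either healthy animal. Lgals3bp, a secreted galectin-binding glycoprotein, went from 22.1 and 10.9 to 173 and 361 CPM (log2 3.98, SE 0.54, adjusted p = 0.0016). Of other genes with large changes, the serpin Serpina3g rose by 5.21, the exchange factor Rapgef5 by 4.41, Gm42679 by 3.45, Ms4a4d by 3.15 and the transporter Slc43a3 by 3.06 on the log2 scale. The calls for Serpina3g, Rapgef5 and Slc43a3 were lost without either healthy animal, and those for Gm42679 and Ms4a4d without that of the TNF-inhibitor library; Serpina3g was lost in 8 of 16 settings. Of the 14 tested genes of the acute-phase and IL-17-response list, 2 rose, C3 among them, and all 14 had a positive change, with a median of 2.10. Saa3, at 2753 and 704 CPM in healthy and 8520 and 8666 CPM in untreated animals, did not pass (adjusted p = 0.48), nor did Hp, at 588 and 142 against 8117 and 4406 CPM (adjusted p = 0.2).

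Among genes of the vessel wall's matrix, 4 of the list were also higher. Col4a1 was at 787 and 748 CPM in healthy and 3326 and 2119 CPM in untreated animals (log2 1.82, SE 0.38, adjusted p = 0.038). Its call was lost in 6 of 16 settings, with an adjusted p of 0.21 without the healthy animal of the IL-17-inhibitor library, 0.24 without that of the TNF-inhibitor library and 0.27 without untreated animal 1. Fbn1, the microfibril protein fibrillin-1, went from 75.1 and 49.1 to 445 and 302 CPM (log2 2.55, SE 0.38, adjusted p = 0.0029), and Bgn, the proteoglycan biglycan, chosen after its values were seen, from 424 and 442 to 1852 and 1546 CPM (log2 1.97, SE 0.28, adjusted p = 0.0016). Of 25 tested genes of the basement membrane and vessel matrix list 4 rose (Col4a1, Col6a1, Col6a2, Fbn1), none fell, and the median was 1.21. Col6a1 and Col6a2 were each lost in 5 of 16 settings, among them the omission of either healthy animal (adjusted p = 0.12 to 0.18) and of untreated animal 1. Fbn1 was lost without the healthy animal of the IL-17-inhibitor library (adjusted p = 0.054), and Bgn without that of the TNF-inhibitor library (0.085). Of 19 genes of fibrillar collagens and wound matrix none passed, with a median of 1.26. In untreated animal 2, left out of the fit and without any Rgs5-rich barcode, Col4a1 was at 367 CPM. In the 3 TNF-inhibited animals Col4a1 was at 1987 to 3204 CPM and in the 3 IL-17-inhibited ones at 1282 to 3032 CPM, above the healthy animals of the same libraries. Among Rgs5-rich barcodes alone, Col4a1 (adjusted p = 0.046) and Fbn1 (0.02) passed and Col6a1 (0.13) and Col6a2 (0.12) did not.

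Markers of fibroblasts, which also make C3 and matrix, moved with the complement and matrix genes. Their 14 genes summed to 3055 and 3711 CPM in the healthy and 5535 and 8810 CPM in the untreated animals, with the excluding gene Pdgfra at 0 by the rule. The 12 endothelial markers summed to 63.8 and 122 CPM in healthy and 200 and 433 CPM in untreated animals, with Pecam1, Kdr, Tek and Cldn5 at 0 UMIs in both groups, and the 12 leukocyte markers to 221 and 922 CPM and to 22.2 and 30.9 CPM, with 10 of the 12 at 0 in both groups. The part of fibroblast or endothelial RNA in these results was not tested. C3 was at 1133 CPM in the Rgs5-rich clusters and 6594 CPM in barcodes annotated as fibroblasts, whereas Cp was at 1325 and 427 CPM. Prg4, the lubricin gene of lining fibroblasts, had a UMI in 97.0% of Rgs5-rich and 93.8% of smooth-muscle-like barcodes (median depths 9865 and 7919 UMIs), although it marks neither class. Schwann markers summed to 412 and 1627 CPM in healthy and 101 and 267 CPM in untreated animals, and keratinocyte markers to 1824 and 2845 CPM and to 54.1 and 3602 CPM.

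**Figure D4:**
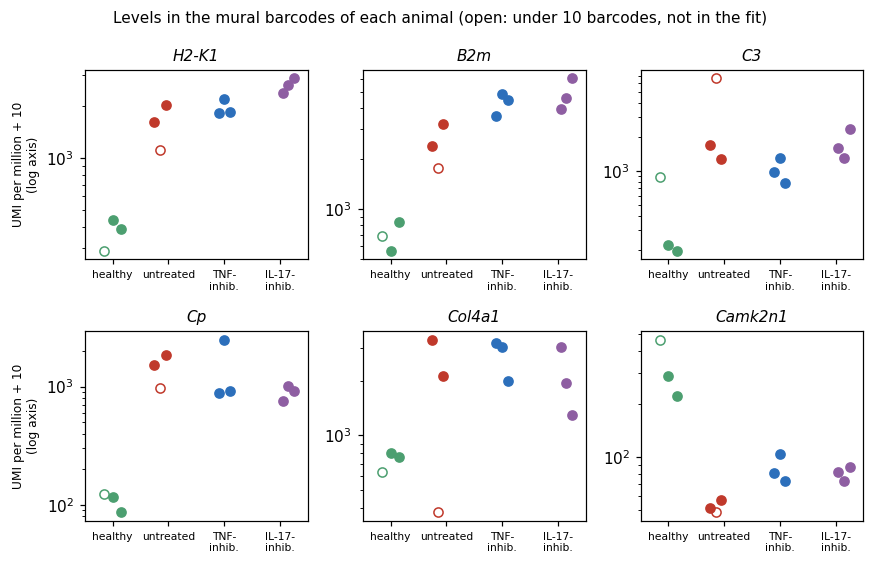
Level of 6 genes in the mural barcodes of each animal (CPM plus 10, log axis); each point is 1 animal, and open points had under 10 mural barcodes and were not fitted. H2-K1 and B2m are lower in all 3 healthy animals than in any arthritic animal, and Camk2n1 is higher.

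Of the 16 genes that fell, those named here follow. Camk2n1, an inhibitor of the calmodulin-dependent kinase II, was at 278 and 213 CPM in healthy and 41.2 and 47.1 CPM in untreated animals (log2 -2.45, SE 0.38, adjusted p = 0.0036). All inhibitor-treated animals lay between 63.0 and 94.5 CPM, below both fitted healthy animals; the call was lost without the healthy animal of the TNF-inhibitor library or untreated animal 1 (adjusted p up to 0.092). Pcp4l1, a small calmodulin-binding protein, went from 517 and 344 to 74.1 and 62.8 CPM (log2 -2.67, SE 0.47, adjusted p = 0.013), a call lost without the healthy animal of the TNF-inhibitor library and without untreated animals 1 or 3. Txnip, the thioredoxin-interacting protein, went from 261 and 360 to 49.4 and 58.8 CPM (log2 -2.48, SE 0.49, adjusted p = 0.022), and inhibitor-treated animals reached 126 to 394 CPM. Kcnk3, a background potassium channel of vascular smooth muscle, was at 75.1 and 109 CPM in healthy animals with 0 UMIs in both untreated ones, at least 12.3-fold lower against a floor of 3 UMIs over the group (adjusted p = 0.033). This call was lost in 5 of 15 settings, with an adjusted p of 0.14 without the healthy animal of the IL-17-inhibitor library, 0.11 without that of the TNF-inhibitor library and 0.27 with the other hashtag call. Olfml2a and Ubald2 fell by 4.25 and 2.72 on the log2 scale; like Txnip, both lost their call without either healthy animal. Chosen after their values were seen, Csrp2, a smooth muscle LIM protein, fell by 1.70, and the growth arrest genes Gadd45b and Gadd45g fell by 1.55 and 2.35. Csrp2 and Gadd45g were lost without either healthy animal, in 7 and 9 of 16 settings, and Gadd45b without that of the TNF-inhibitor library and in 3 other settings. With Rgs5-rich barcodes alone, Camk2n1 (adjusted p = 0.0049), Txnip (0.00057), Kcnk3 (0.038) and Gadd45b (0.027) passed and Pcp4l1 (0.065), Csrp2 (0.099) and Gadd45g (0.13) did not.

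Genes that define mural identity did not pass in the sum of all mural barcodes. With the rule genes Rgs5, Cspg4, Myh11 and Mcam left out, none of 14 tested pericyte genes and none of 19 contractile genes did, with medians of 0.09 and -0.82. The contractile list, Myh11 included, summed to 16002 and 20080 CPM in healthy and 6990 and 14743 CPM in untreated animals. In the Rgs5-rich clusters the contractile median was 0.07, 1 of 15 pericyte genes was above 0, and Rgs5 had a log2 change of -1.09. Rgs5 was one of the genes that chose the barcodes, so its value is a description. None of 8 Notch pathway genes passed, with a median of -0.57, nor did any of 18 vasoactive receptors and channels, with a median of -0.05. Of 18 interferon-gamma targets and 16 antiviral genes none passed, with medians of 1.17 and 1.02. The receptor chain Ifnar2 rose by 1.63 (adjusted p = 0.044), the only one of 13 tested cytokine receptors to pass. Its call was lost in 10 of 16 settings, with an adjusted p of 0.29 without the healthy animal of the IL-17-inhibitor library, 0.11 without that of the TNF-inhibitor library, 0.25 without untreated animal 1 and 0.085 in the Rgs5-rich clusters. None of 24 chemokine and adhesion genes passed: Cxcl5 was at 84.0 and 60.1 CPM in healthy and 1655 and 455 CPM in untreated animals (adjusted p = 0.066), and Il6 at 2545 and 1065 against 3853 and 3476 CPM (adjusted p = 0.13). Icam1, the ligand of leukocyte integrins, fell by 1.91 on the log2 scale in the Rgs5-rich clusters (adjusted p = 0.02).

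**Figure D5:**
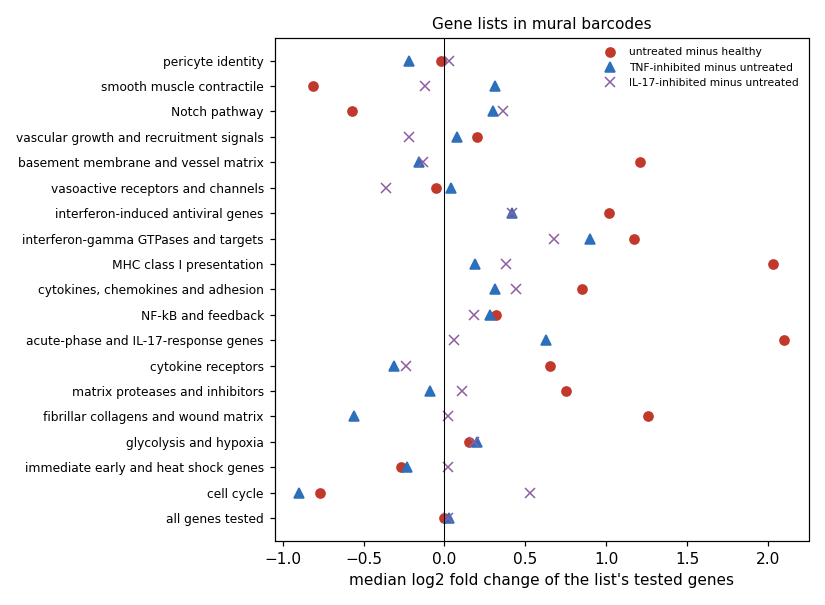
Median log2 fold change of the tested genes of each list in summed mural counts, for untreated minus healthy (circles), TNF-inhibited minus untreated (triangles) and IL-17-inhibited minus untreated animals (crosses). For untreated minus healthy, among lists with 10 or more tested genes, the medians of MHC class I presentation (2.03) and acute-phase genes (2.10) lie farthest from the median of all genes (-0.00); the pericyte, contractile and adhesion lists are drawn with their rule genes.

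Neither inhibitor gave a gene that passed. With TNF inhibition, 0 of 5063 genes differed from untreated animals (0%; edgeR, 416 at an unadjusted p under 0.05, and 11 passed by DESeq2). With IL-17 inhibition 0 of 5063 differed (0%; 336 unadjusted, and 3 by DESeq2). Both comparisons share the 2 untreated animals; leaving out 1 animal gave at most 7 genes with TNF inhibition (without untreated animal 1) and 4 with IL-17 inhibition (without untreated animal 3). The genes of smallest p are given as not passed. The long non-coding RNAs Gm26917 and Rian were at 288 and 94.2 CPM and at 436 and 184 CPM in untreated animals, and at 12.5 to 30.5 CPM and 38.1 to 94.5 CPM in the 6 inhibitor-treated animals (adjusted p = 0.11 for each with TNF inhibition, 0.067 and 0.1 with IL-17 inhibition). Igtp, an interferon-gamma-induced GTPase, was at 16.5 and 43.2 CPM in untreated, 119, 140 and 202 CPM in TNF-inhibited and 46.9 CPM or more in IL-17-inhibited animals (adjusted p = 0.15 with TNF inhibition). The hypoxia-induced lipid droplet gene Hilpda was at 165 and 188 CPM and, with TNF inhibition, at 362, 622 and 558 CPM (adjusted p = 0.15).

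No gene of the chemokine or acute-phase lists passed with either inhibitor. Cxcl2, a neutrophil chemokine, was at 1185 and 1244 CPM in untreated and 2770, 2861 and 2363 CPM in TNF-inhibited animals. In IL-17-inhibited animals it was at 3615, 4670 and 3095 CPM. The untreated values lay below those of all inhibitor-treated animals (IL-17 inhibition, edgeR, log2 1.64, SE 0.28, adjusted p = 0.067). Healthy animals were lower still, at 807 and 402 CPM against 1153 and 1209 CPM in untreated ones, in the mural sums scaled for the interaction fit. Saa3 reached 33870 CPM in TNF-inhibited animal 2 and was at 5036 and 4611 CPM in the other TNF-inhibited animals and 1963 to 3776 CPM in IL-17-inhibited ones. Lcn2, an iron-sequestering target of IL-17, was at 486 and 1840 CPM in untreated, 1442, 8890 and 1120 CPM in TNF-inhibited and 480, 123 and 253 CPM in IL-17-inhibited animals. In the MHC class I list the medians were 0.19 with TNF inhibition and 0.38 with IL-17 inhibition, beside 0.03 and 0.02 over all genes, and none of 19 genes passed in either. The interferon-gamma list had medians of 0.90 and 0.68, with 17 of 18 genes above 0 in each comparison and none passed. In the Rgs5-rich clusters its median with TNF inhibition had the other sign, -0.45, with 3 of 13 genes above 0. With IL-17 inhibition it was 0.27 there. The class I medians in these clusters were -0.15 and 0.17. That fit lacked TNF-inhibited animal 3, which had 9 Rgs5-rich barcodes, so the animals differ from those of the fit on all mural barcodes.

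Mural and endothelial cells of the same animals differed in their change from healthy to untreated arthritic animals for 20 of 7050 genes (0.284%), tested as an interaction with the animal as a block. Cp was at 1466 and 1796 CPM in mural and 249 and 326 CPM in endothelial sums of untreated animals, and at 103 and 74.0 CPM against 319 and 168 CPM in healthy animals (log2 difference of the responses 3.94, SE 0.46, adjusted p = 0.00057). C3 was at 1642 and 1240 CPM in mural and 447 and 525 CPM in endothelial sums of untreated animals, and at 206 and 180 CPM against 761 and 196 CPM in healthy ones (log2 2.65, SE 0.48, adjusted p = 0.036). Fbn1 was at 432 and 294 against 91.5 and 110 CPM in untreated and at 73.0 and 47.6 against 93.9 and 119 CPM in healthy animals (log2 2.62, SE 0.54, adjusted p = 0.048). The healthy endothelial sums held 18 barcodes (TNF-inhibitor library) and 13 (IL-17-inhibitor library), and in the first of them the fibroblast gene Pi16 was at 536 CPM, against 0 to 21.5 CPM in the other endothelial sums; its part in the difference was not tested. The call for Cp passed in all 13 settings run, while that for C3 was lost in 5 (adjusted p up to 0.26) and that for Fbn1 in 8 (up to 0.31), both among them without the healthy animal of the TNF-inhibitor library and without either untreated animal. Csrp2 moved in opposite ways, from 511 and 418 to 160 and 130 CPM in mural and from 179 and 175 to 395 and 335 CPM in endothelial cells (log2 -2.72, SE 0.42, adjusted p = 0.0045), a call lost without untreated animal 3 (0.073). For MHC class I the difference did not pass: H2-K1 rose by 0.83 more in mural cells (SE 0.28, adjusted p = 0.29) and B2m by 0.70 more (SE 0.26, adjusted p = 0.37). With TNF inhibition 1 gene (0.0142%) and with IL-17 inhibition 3 genes (0.0426%) differed between the cell types. All were keratins, Krt5, Krt15 and Krt16, which were high in the mural sum of untreated animal 3 (Krt5 at 492 CPM against 0 in animal 1); that sum held 2 of the 12 barcodes of cluster 5. Without untreated animal 3 the count for untreated against healthy was 2 and without untreated animal 1 it was 8; without TNF-inhibited animal 1 or IL-17-inhibited animals 1 or 2 it was 11 to 13. Without untreated animal 1 the counts with TNF and IL-17 inhibition were 8 and 14.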

How the data were processed

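Mouse synovial single-cell libraries were analysed from raw UMI counts, which the authors deposited without normalization, made with Cell Ranger 6.0.0 per the file headers (6.0.6 and mm10 per the submitters' processing notes). The members and lists were chosen with earlier results of these data known. Animals were called from hashtag counts (HTODemux, Seurat 5.3.0, quantile 0.99). Clustering used 2000 variable genes, 20 components, 15 neighbours and resolution 0.3 (scanpy 1.11.5, leidenalg 0.10.2). Counts were summed per animal with 10 or more mural barcodes and the sums entered edgeR 4.0.16 (quasi-likelihood test in R 4.3.3, filterByExpr, TMM scaling, group as the only term), with p-values adjusted over all genes; the test was tried on simulated counts. CPM per animal uses TMM-scaled library sizes; by class it is the plain share of UMIs. Mural sums held 129284 to 387059 UMIs per fitted animal. Intervals and floors cover counting error only. Alternatives were DESeq2 1.42.0, no filter, another hashtag call, other member rules and omitted animals. Named genes were up to 8 per direction with the largest change among those passing, at 50 CPM or more and without overlap, the smallest p filling up to 4, plus list members that passed and examples. A few genes that met this rule are not reported here.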

Additional observations from a re-analysis of the deposited data

Results flagged for a closer look

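The differences between mural and endothelial cells in their change from healthy to untreated arthritic animals passed the interaction test (edgeR) for 20 genes, of which those of smallest adjusted p in each direction are given. The change was more positive in mural than in endothelial cells for Cp (adjusted p = 0.00057), Penk (0.0045), Pim1 (0.0045), Ccnd2 (0.011) and Emp1 (0.025). It was more negative in mural cells for Csrp2 (adjusted p = 0.0045), Lipg (0.0045), Cald1 (0.025) and Olfml2a (0.036). From healthy to untreated animals, Cald1 went from 1495 and 1205 to 2218 and 1419 CPM in mural sums, so the mural values did not fall. In endothelial sums Cald1 went from 132 and 112 to 621 and 474 CPM. Emp1 went from 344 and 391 to 617 and 782 CPM in mural sums. In endothelial sums Emp1 went from 2734 and 3599 to 1826 and 1526 CPM. Pim1, a serine/threonine kinase gene, was at 236 and 137 CPM in healthy and 328 and 473 CPM in untreated mural sums, and at 554 and 308 against 180 and 153 CPM in endothelial sums. Ccnd2, which encodes cyclin D2, was at 623 and 433 against 296 and 271 CPM in mural and at 216 and 308 against 17.3 and 19.9 CPM in endothelial sums, so its difference came with lower values in both. Lipg, endothelial lipase, had 0 UMIs in mural sums of untreated and in endothelial sums of healthy animals, so no size is given. Without untreated animal 3 the calls for Penk, Pim1, Ccnd2, Emp1, Csrp2, Lipg, Cald1 and Olfml2a were lost, and that for Cp was not. Between inhibitor-treated and untreated animals, Krt5 differed with TNF inhibition (adjusted p = 0.012), and Krt5 (6.2e-06), Krt15 (0.0021) and Krt16 (0.016) with IL-17 inhibition.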

How the results depend on the processing

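The mural share test within libraries gave 2.95 percentage points with annotated barcodes left out of the denominator (exact p = 0.156), and 0.81 to 1.96 when 1 animal was left out. The smooth-muscle-like share difference ranged from 9.02 to 15.87 percentage points over omitted animals and was 0.72 with the other hashtag call. Gene counts for untreated minus healthy were 96 with DESeq2, 267 with no filter on low counts, 27 with the animal taken by the highest centred log-ratio, and 7 to 93 over omitted animals. For TNF-inhibited minus untreated they were 11, 94 and, over omitted animals, 0 to 7, and for IL-17-inhibited minus untreated 3, 49 and 0 to 4, with DESeq2, with no filter and over omitted animals. Interaction counts were 48, 123 and 2 to 28 for untreated minus healthy, 3, 56 and 0 to 8 with TNF inhibition (2 with the other hashtag call), and 1, 56 and 1 to 14 with IL-17 inhibition, in the same order. Of 38 called genes checked for untreated minus healthy, none changed sign in any of 604 gene settings, 435 of which kept the call, and C3, H2-K1, H2-Q7 and Lgals3bp passed in every one that was run (highest adjusted p 0.03, 0.03, 0.03 and 0.048). Omissions left groups with 1 animal, which was assumed to vary like the others. Fits with 3 of 4 rule genes and on smooth-muscle-like barcodes alone were not run, because a group then had too few animals with 10 barcodes. A fit with a library term could not be run. Among the fitted animals the untreated library held only untreated ones, so its library term and the untreated group were the same. Fitted sums of 129284 to 387059 UMIs limit what low genes can show. No paired analysis was possible because hashtag numbers name different animals in different libraries; this holds for comparisons between animals, while the mural and endothelial sums were paired by animal in the interaction. There Krt5 with TNF inhibition ranged from -7.87 to 0.41 on the log2 scale over omitted animals and changed sign without untreated animal 3 (adjusted p = 1).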

Other observations

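Thinning every barcode to 2000 UMIs, which left out 569, 397 and 490 shallower barcodes, gave 47, 99 and 146 mural barcodes in the untreated, TNF-inhibitor and IL-17-inhibitor libraries (0.491%, 1.11% and 1.34% of the rest), against 68, 145 and 210 before thinning. Of the 4 smooth-muscle-like barcodes of the untreated library, 2 came from its healthy animal, 1 from untreated animal 1 and 1 had no hashtag. For 100 endothelial barcodes there were 19.0, 33.3 and 48.4 mural barcodes in the same libraries.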
